A study of Mus musculus with 6 samples.

Results

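The integrated stress response genes described here are 10 genes of mouse colon, taken by symbol: Atf4, Ddit3, Trib3, Chac1, Asns, Sesn2, Psat1, Phgdh, Mthfd2 and Slc7a11. All 10 were found, each on 1 row, among 24421 gene rows. RNA was sequenced from colon of C57BL/6 mice in 2 groups of 3 samples: 3 with chronic colitis caused by DSS (dextran sulfate sodium, which injures the colonic lining) and 3 labelled only as control. Both groups carry the age label of 7 weeks, no genetic change is labelled, and the sources used here do not give the dose and length of DSS exposure or the stretch of colon taken. Whether each sample is its own animal is not labelled, so the p-values rest on a sample-to-sample spread that may be technical. Levels are in FPKM, fragments counted per kilobase of transcript and scaled to sequencing depth.

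In the integrated stress response, kinases that sense misfolded protein, amino acid shortage, viral RNA or heme deficit phosphorylate the translation factor eIF2alpha. Most protein synthesis then slows, while the ATF4 mRNA is translated more, and ATF4 switches on genes for amino acid uptake, amino acid synthesis and, under lasting stress, cell death. ATF4 is controlled largely at translation, so the level of its mRNA is not a measure of its protein. In the gut, secretory cells such as goblet cells carry a heavy load of protein synthesis.

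None of the 10 genes passed the test between DSS and control colon. Of the 8 that reached the level needed for testing, 0 were called (limma, Benjamini-Hochberg adjusted p under 0.05), where 8.90% of the 12348 genes tested were called, 6.34% as higher and 2.56% as lower in DSS colon. At an unadjusted limma p under 0.05, Atf4 and Sesn2 passed, 2 of 8 and both higher in DSS colon, against 28.3% of all tested genes in either direction and 20.3% higher in DSS colon. The fold change was above 0 for 6 of the 8, against 63.7% of all tested genes, and its median was 0.54 for the 8 and 0.13 for all tested genes (log2). Sesn2 entered the test through its DSS samples alone, so the counts over the 8 are a description.

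Library-wide facts bear on these values. Summed FPKM per library ranged from 609544 to 678076, and read totals are unknown. Over all tested genes 783 were higher and 316 lower in DSS colon, so 71.2% of calls were higher, and this share was 48.4% under upper-quartile scaling and 50.3% under median-of-ratios scaling, which moved the median log2 fold change of all genes by -0.15 and -0.14. Gapdh, used by every cell, was at 0, 21.4 and 36.1 FPKM in DSS 1, 2 and 3, against 2.00, 0.117 and 0.145 FPKM in control 1, 2 and 3, low for such a gene in all 6 samples, so a low value in these files can be a failed estimate. No value of the 10 genes was 0. In pieces of tissue, fewer cells of a type and less RNA per cell cannot be told apart. The 10 epithelial markers summed to between 9115 and 10452.5 FPKM in DSS colon and between 13177 and 17268 FPKM in control colon. Of the 10, 2 were called lower, against 2.56% of all tested genes. The fold change was above 0 for 1 of the 10, Muc2, which was not called (limma adjusted p = 0.177). Muc2 had 210, 382 and 872 FPKM in DSS 1, 2 and 3, against 215, 135 and 210 FPKM in control 1, 2 and 3. Markers of neutrophils were near absent from control colon. Their sums were 4101 to 6982 FPKM in DSS and 7.93 to 30.9 FPKM in control samples. In the test 8 of 8 were called higher in DSS colon, against 6.34% of all tested genes. Some of the 8, Csf3r and Cxcr2 among them, entered the test through their DSS samples alone, so this count is a description. The part of these shifts in cell make-up in the results for the 10 genes was not tested.

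Atf4, the bZIP transcription factor at the centre of the response, was the most abundant of the 10. It had 145, 196 and 223 FPKM in DSS 1, 2 and 3, against 163, 108 and 92.3 FPKM in control 1, 2 and 3. DSS 2 and DSS 3 lay above every control, but DSS 1 lay below control 1, so the groups overlapped. The mean was 188 ± 39.7 FPKM in DSS colon and 121 ± 37.3 FPKM in the controls (SD, n = 3 each). The log2 fold change was 0.65 ± 0.25 SE, with a 95% interval of 0.06 to 1.24 and a limma adjusted p of 0.141. At that level Atf4 stood above 93.9% of tested genes in control colon. The gene lies on chromosome 15, 80255184 to 80257541, plus strand, in GRCm38, where no other annotated gene overlaps it.

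Ddit3 encodes CHOP, the transcription factor of the late, death-prone phase of the response and a direct target of ATF4. It had 13.7, 12.5 and 15.0 FPKM in DSS 1, 2 and 3, against 15.8, 15.3 and 13.9 FPKM in control 1, 2 and 3. The groups overlapped and all 6 values lay close together. The log2 fold change was -0.12 ± 0.14 SE (95% interval -0.46 to 0.21, limma adjusted p = 0.615), the narrowest interval among the 8 tested genes. Ddit3 lies on chromosome 10 from 127290774, plus strand, and its longer annotated model, which ends at 127296288, overlaps Mars, the methionyl-tRNA synthetase gene, on the opposite strand. The library kit did not mark strand, so reads in the overlap cannot be told apart.

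The motif that ATF4 reads as a dimer with C/EBP proteins was sought in the 300 bases from 250 before to 50 after each RefSeq start site (GRCm38.p6). The letters searched were TGATGNAA on both strands, the reverse strand reading TTNCATCA. All 10 genes matched, with 11 windows, and 4 genes held it: Chac1, Trib3, Asns and Slc7a11. Of all 32851 windows 3.97% held it, and of all 27025 genes with a window 4.51% did. The 4 windows of these genes are printed because they held the motif, and the values of the genes are given after them. The sequences read 5′ to 3′ on the gene's strand, and capitals mark the motif.
Chac1, chr2:119350992-119351291 (plus strand): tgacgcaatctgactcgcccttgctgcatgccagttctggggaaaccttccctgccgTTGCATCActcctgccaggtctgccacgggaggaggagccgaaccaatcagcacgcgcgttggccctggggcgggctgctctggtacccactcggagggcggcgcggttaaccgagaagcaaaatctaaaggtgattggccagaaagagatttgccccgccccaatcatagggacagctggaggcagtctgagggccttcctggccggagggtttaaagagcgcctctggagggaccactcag
Trib3, chr2:152344011-152344310 (minus strand): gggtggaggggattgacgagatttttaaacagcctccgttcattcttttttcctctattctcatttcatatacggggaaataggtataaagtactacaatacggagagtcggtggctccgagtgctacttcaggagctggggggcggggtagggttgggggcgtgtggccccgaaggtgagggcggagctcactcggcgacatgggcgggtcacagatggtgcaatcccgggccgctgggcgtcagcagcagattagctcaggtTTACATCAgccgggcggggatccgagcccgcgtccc
Asns, chr6:7693160-7693459 (minus strand): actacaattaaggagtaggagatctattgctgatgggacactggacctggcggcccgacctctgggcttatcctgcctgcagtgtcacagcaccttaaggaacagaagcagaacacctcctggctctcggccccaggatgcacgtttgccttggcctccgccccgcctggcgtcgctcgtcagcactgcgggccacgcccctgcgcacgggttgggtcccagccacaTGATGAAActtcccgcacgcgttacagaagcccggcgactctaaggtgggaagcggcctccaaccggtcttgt
Slc7a11, chr3:50443564-50443863 (minus strand): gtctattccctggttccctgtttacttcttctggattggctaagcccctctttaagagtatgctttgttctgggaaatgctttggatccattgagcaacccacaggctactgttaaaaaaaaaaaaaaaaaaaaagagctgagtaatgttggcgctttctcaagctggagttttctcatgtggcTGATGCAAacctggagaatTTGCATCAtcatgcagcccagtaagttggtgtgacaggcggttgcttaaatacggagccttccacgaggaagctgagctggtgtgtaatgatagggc
The Slc7a11 window held 2 copies facing each other, which begin 66 and 47 bases before the start site, and the Asns copy begins 23 bases before it. The Chac1 copy begins 193 bases before the start and the Trib3 copy 15 bases after it, inside the transcript. A match is a description of the letters and not a measured binding site, and the other 6 genes may hold the motif outside this window. For Psat1 and Mthfd2 the searched windows lie inside the gene spans given below, so the upstream ends of those spans were not searched.

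Chac1 and Trib3 are among the genes of the set that are strongly induced by ATF4 and CHOP in cultured cells. Chac1, an enzyme that breaks down glutathione, had 1.78, 1.92 and 4.86 FPKM in DSS 1, 2 and 3, against 4.88, 0.386 and 0.633 FPKM in control 1, 2 and 3. DSS 3 and control 1 were alike and high, while control 2 and control 3 were lowest. The log2 fold change was 0.61 ± 0.58 SE (95% interval -0.77 to 2.00, limma adjusted p = 0.535), the widest interval of the 8. Trib3 encodes a pseudokinase that damps ATF4 activity and AKT signalling. It had 0.611, 0.503 and 1.70 FPKM in DSS 1, 2 and 3, against 1.41, 0.682 and 0.485 FPKM in control 1, 2 and 3. Again DSS 3 and control 1 were the high samples, and the means of 0.938 ± 0.662 FPKM in DSS colon and 0.859 ± 0.488 FPKM in the controls differed by less than either SD (n = 3 each). Trib3 reached 1 FPKM in 2 samples and was not tested; with the filter lowered to 0.1 FPKM its limma adjusted p was 0.943.

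**Figure D1:**
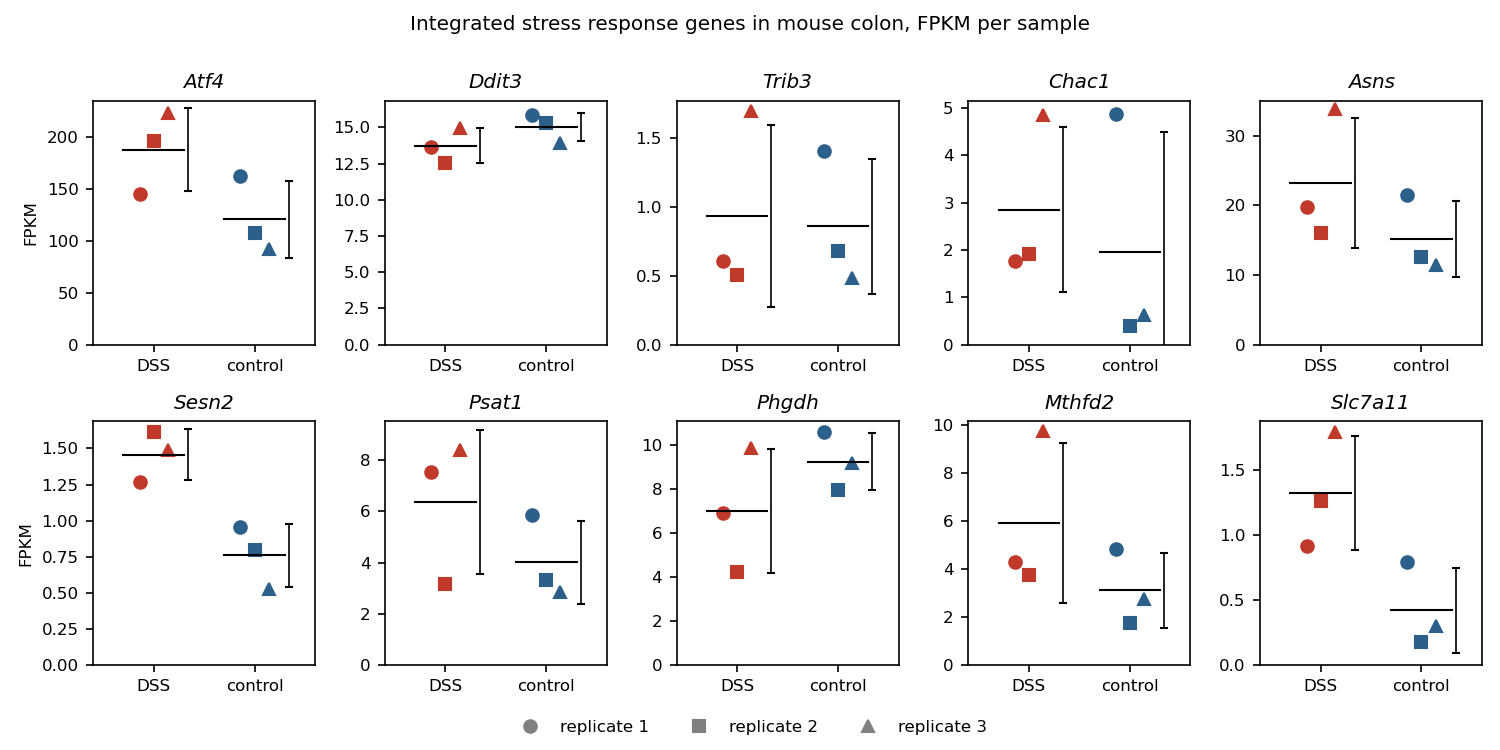
FPKM of the 10 genes in each sample, DSS on the left and control on the right of each panel, every axis starting at 0. Marker shapes give the replicate number within a group, horizontal lines the group mean and bars the SD over 3 samples (cut at 0 for Chac1 in control colon). The groups are apart for Sesn2 and Slc7a11 and overlap for the other genes.

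Enzymes of amino acid and folate metabolism had higher means in DSS colon with one exception, and none passed the test. Asns, which makes asparagine, had 19.8, 15.99 and 33.8 FPKM in DSS 1, 2 and 3, against 21.5, 12.7 and 11.4 FPKM in control 1, 2 and 3. Control 1 exceeded 2 of the 3 DSS samples, so the groups overlapped. Its log2 fold change was 0.56 ± 0.33 SE (limma adjusted p = 0.298). Mthfd2, a mitochondrial enzyme of folate metabolism that is high in dividing cells, had 4.29, 3.73 and 9.75 FPKM in DSS 1, 2 and 3, against 4.82, 1.77 and 2.73 FPKM in control 1, 2 and 3. DSS 3 stood far above the rest and control 1 above the other DSS samples. Its log2 fold change of 0.72 ± 0.39 SE was the highest of the 8 (95% interval -0.19 to 1.63, limma adjusted p = 0.267). Mthfd2 lies on chromosome 6, 83305691 to 83325908, minus strand.

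Phgdh and Psat1 catalyse consecutive steps of serine synthesis from a glycolytic intermediate, and their fold changes had opposite signs. Phgdh, the first enzyme, had 6.90, 4.24 and 9.86 FPKM in DSS 1, 2 and 3, against 10.6, 7.97 and 9.17 FPKM in control 1, 2 and 3. DSS 1 and DSS 2 lay below every control and DSS 3 within their range. Psat1, the aminotransferase of the second step, had 7.54, 3.16 and 8.40 FPKM in DSS 1, 2 and 3, against 5.87, 3.30 and 2.85 FPKM in control 1, 2 and 3. Here DSS 1 and DSS 3 lay above every control and DSS 2 within their range. The log2 fold changes were -0.41 ± 0.27 SE for Phgdh (95% interval -1.05 to 0.22, limma adjusted p = 0.361) and 0.52 ± 0.36 SE for Psat1 (95% interval -0.33 to 1.37, limma adjusted p = 0.389). The difference between the 2 genes was not tested. Phgdh lies on chromosome 3, 98313170 to 98339990, and Psat1 on chromosome 19, 15904678 to 15947337, both on the minus strand of GRCm38, and a processed pseudogene, Gm3329, overlaps Psat1 on the other strand. Phgdh shares near-identical stretches with 13 other annotated genes, so its values are uncertain. DSS 2 was the lowest DSS sample for both genes, as it was for 49.8% of all tested genes. It was also the lowest for 6 of 6 fibroblast, 6 of 6 smooth muscle, 5 of 5 endothelial and 8 of 8 dividing cell markers. The sum for dividing cells was 107 FPKM in DSS 2, 173 to 220 FPKM in the other DSS samples and 134 to 169 FPKM in control colon. Other cell types differed, with DSS 2 lowest for 5 of 10 epithelial and 5 of 8 macrophage and monocyte markers. It was lowest for 2 of 8 neutrophil and 1 of 8 B and plasma cell markers. For T cells it was lowest for 0 of 3 and highest for 3 of 3 markers. The part of any of these cell types in the values of Phgdh and Psat1 was not tested.

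Sesn2 and Slc7a11 were the genes whose groups did not overlap, both higher in DSS colon and both at low levels. Sesn2, a leucine sensor that restrains the growth kinase complex mTORC1, had 1.26, 1.62 and 1.49 FPKM in DSS 1, 2 and 3, against 0.955, 0.797 and 0.526 FPKM in control 1, 2 and 3. Every DSS sample exceeded every control. The mean was 1.92-fold that of control colon, with a log2 fold change of 0.49 ± 0.17 SE on the scale of FPKM + 1, which compresses low values (95% interval 0.09 to 0.89, limma adjusted p = 0.118). Slc7a11, the cystine transporter that feeds glutathione synthesis, had 0.913, 1.26 and 1.79 FPKM in DSS 1, 2 and 3, against 0.792, 0.173 and 0.296 FPKM in control 1, 2 and 3. Every DSS sample exceeded every control, though DSS 1 and control 1 were close, and the mean was 3.15-fold that of control colon. Sesn2 lies on chromosome 4, 132492032 to 132510501, and Slc7a11 on chromosome 3, 49892526 to 50443614, both on the minus strand, and other annotated transcripts overlap each of them.

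Among all tested genes 35.1% had groups apart, 25.6% with DSS higher and 9.51% with DSS lower, and the share with DSS higher was 19.9% among the 19058 genes above 0 in any sample, so 2 of 10 was near the background. Slc7a11 reached 1 FPKM in 2 samples and Sesn2 in 3, which put them on either side of the filter. With the filter at 0.1 FPKM Slc7a11 had a log2 fold change of 0.72 ± 0.21 SE and a limma adjusted p of 0.0906, where 7.02% of 15630 genes were called. Slc7a11 also shares near-identical stretches with 9 other annotated genes, tubulin genes among them, so its values are uncertain. Both genes have other known activators, p53 for Sesn2 and NRF2 for both.

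**Figure D2:**
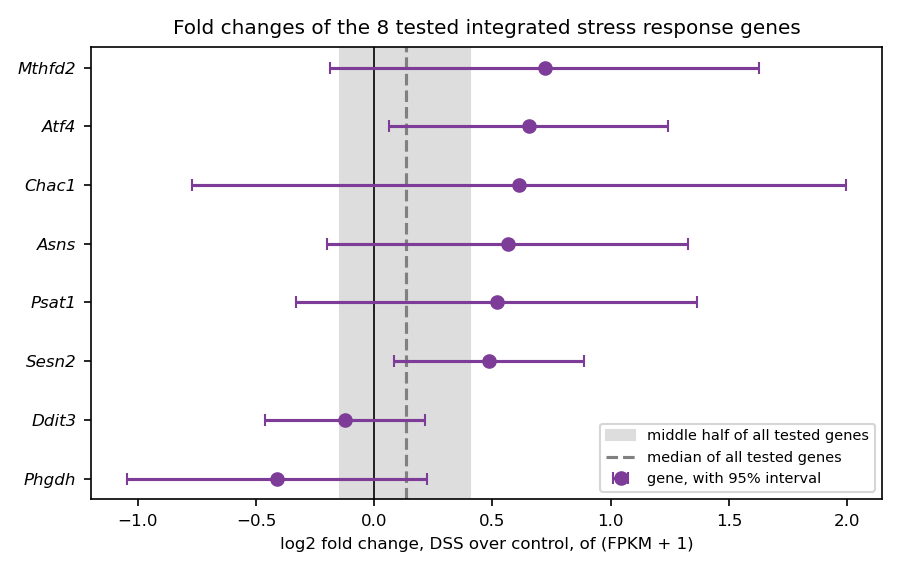
Log2 fold change of (FPKM + 1), DSS over control, for the 8 tested genes, with 95% intervals from limma. The dashed line is the median of all tested genes at 0.13 and the grey band their middle 50%. All intervals but those of Atf4 and Sesn2 include 0, and no gene passed after adjustment over all genes.

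In DSS colon the mean ran from Atf4 at 188 FPKM through Asns at 23.2, Ddit3 at 13.7, Phgdh at 7.00, Psat1 at 6.37, Mthfd2 at 5.92, Chac1 at 2.85, Sesn2 at 1.46 and Slc7a11 at 1.32 to Trib3 at 0.938 FPKM. In control colon it ran from Atf4 at 121 FPKM through Asns at 15.2, Ddit3 at 15.0, Phgdh at 9.24, Psat1 at 4.01, Mthfd2 at 3.10, Chac1 at 1.97, Trib3 at 0.859 and Sesn2 at 0.759 to Slc7a11 at 0.420 FPKM. Neighbours closer than the larger of their SDs were each pair from Phgdh down to Trib3 in DSS colon, and Asns with Ddit3 and each pair from Psat1 down to Sesn2 in control colon.

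The 10 genes mostly put the same sample of a group highest. Control 1 was the highest control for 10 of 10 genes, while it was the highest control for 25.6% of all tested genes. DSS 3 was the highest DSS sample for 9 of 10, with Sesn2 the exception, against 37.5% of all tested genes. The median deviation from the mean of the own group over the 10 genes stood at 0.47 for DSS 3, -0.18 for DSS 1 and -0.31 for DSS 2, and 0.44 in control 1, -0.18 in control 2 and -0.25 in control 3 (log2 of FPKM + 1). These are values of libraries within a group, whose replicates have no order, and no test was made of them. Without control 1 the lowest adjusted p in limma among the members was still above 0.05, and so it was without any other single sample.

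**Figure D3:**
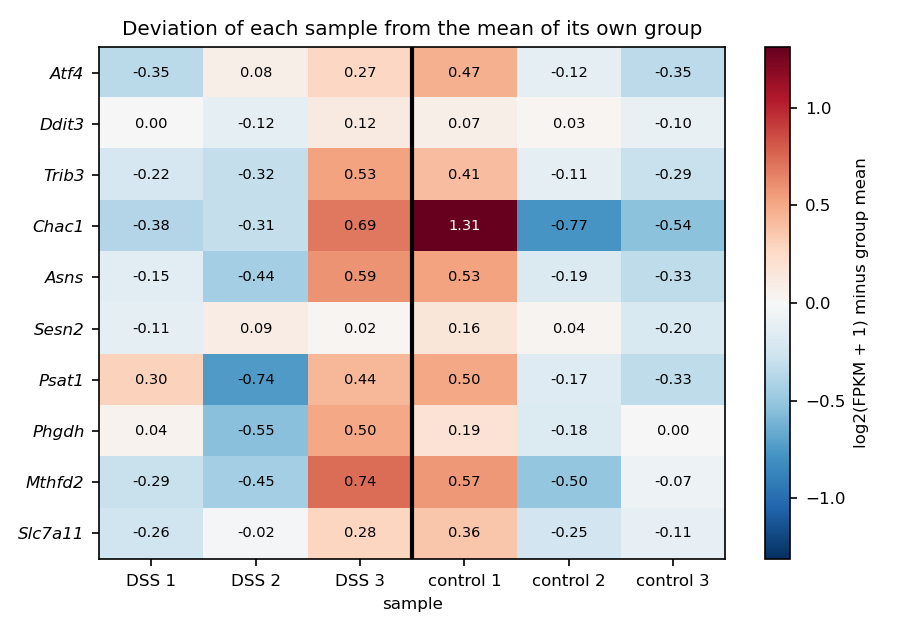
Deviation of log2(FPKM + 1) of each sample from the mean of its own group, samples in columns (DSS left, control right of the line) and the 10 genes in rows. DSS 3 is positive in 10 rows and control 1 in 10 rows, with the largest value, 1.31, for Chac1 in control 1.

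Some other lists put control 1 or DSS 3 highest as well, and some did not. Of all tested genes, control 1 was the highest control for 25.6% and DSS 3 the highest DSS sample for 37.5%. Control 1 was also the highest control for 10 of 10 epithelial markers, for 12 of 14 genes of the ATF6 and XBP1 arms, for 13 of 20 cytosolic tRNA synthetases and for 5 of 7 amino acid transporters. Among immune markers it was the highest control for 7 of 8 of neutrophils and 6 of 8 of macrophages and monocytes, with a neutrophil sum of 30.9 FPKM in control 1, 7.93 FPKM in control 2 and 15.3 FPKM in control 3. It was so for 2 of 12 genes in the list of serine, glycine, folate and proline synthesis, and for 5 of 14 other ATF4 or CHOP targets. Hspa5, a chaperone of the endoplasmic reticulum picked as an example after its values were seen, had 387, 345 and 505 FPKM in DSS 1, 2 and 3, against 618, 362 and 354 FPKM in control 1, 2 and 3. DSS 3 was the highest DSS sample for 6 of 6 smooth muscle markers. Their sum was 3298 FPKM in DSS 3, 1166 to 1732 FPKM in the other DSS samples and 3477 to 4409 FPKM in control colon. It was the highest for 5 of 7 amino acid transporters and 7 of 14 genes of the ATF6 and XBP1 arms. The count was 9 of 20 for synthetases, 4 of 10 for epithelial markers, 4 of 12 for the synthesis list and 3 of 8 for neutrophil markers. The part of tissue make-up in the ranks of the 10 genes was not tested.

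Upstream of ATF4, 0 of 4 eIF2alpha kinase genes were called, against 8.90% of all tested genes. At an unadjusted limma p under 0.05, 2 of 4 passed, against 28.3% of all tested genes. Groups were apart with DSS higher for 2 of 4, against 25.6% of all tested genes. The log2 fold changes were above 0 for 2 and below 0 for 2, with a median of 0.07 against 0.13 for all tested genes. Eif2ak4 (GCN2, the amino acid sensor) had 3.18, 5.16 and 5.04 FPKM in DSS 1, 2 and 3, against 1.89, 1.94 and 2.77 FPKM in control 1, 2 and 3, so the groups were apart. Its log2 fold change was 0.76 ± 0.22 SE (limma adjusted p = 0.0742). It was called in 1 of 15 other settings, without DSS 1 (limma adjusted p = 0.0259), and its adjusted p rose to 0.206 in others. Eif2ak3 (PERK, the sensor of the endoplasmic reticulum) had 9.28, 9.98 and 13.2 FPKM in DSS 1, 2 and 3, against 8.54, 5.79 and 6.12 FPKM in control 1, 2 and 3, with groups apart and a limma adjusted p of 0.110. Eif2ak1 (HRI, the heme sensor) and Eif2ak2 (PKR, the sensor of double-stranded RNA and an interferon-induced gene) had log2 fold changes of -0.47 and -0.50 and were not called (limma adjusted p = 0.219 and 0.524).

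Among 13 genes of eIF2, its exchange factor eIF2B and its phosphatases 1 was called, near the 8.90% of all tested genes. Eif2s2, which encodes the beta subunit of eIF2, fell, with 158, 187 and 138 FPKM in DSS 1, 2 and 3, against 291, 289 and 292 FPKM in control 1, 2 and 3. The 3 controls were nearly equal and all DSS samples lay well below them. The log2 fold change was -0.86 ± 0.15 SE (limma adjusted p = 0.0157). Eif2s2 has 1 near-identical annotated copy, so its level is uncertain, and its call was lost without DSS 3 or any one control (adjusted p up to 0.0803). The gene for the alpha subunit, Eif2s1, and Ppp1r15a (GADD34, the ATF4-induced phosphatase subunit that ends the response) were not called and are named after their values were seen.

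Among 8 bZIP partners and regulators of ATF4, Nupr1 rose, 1 of 8 against 8.90% of all tested genes called. Nupr1, a small stress-induced chromatin protein, had 356, 725 and 935 FPKM in DSS 1, 2 and 3, against 222, 138 and 153 FPKM in control 1, 2 and 3. Every DSS sample exceeded every control. Its log2 fold change of 1.89 ± 0.37 SE (limma adjusted p = 0.0259) was the largest in either direction among the 78 tested genes of the 7 pathway lists, but the call was lost without any one of DSS 2, DSS 3 and the controls and in 2 other settings (adjusted p up to 0.106). Cebpb, an ATF4 partner named after its values were seen, had 4.16, 56.1 and 79.4 FPKM in DSS 1, 2 and 3, against 24.6, 18.3 and 20.7 FPKM in control 1, 2 and 3. DSS 1 lay below and the other DSS samples above every control, and it was not called (limma adjusted p = 0.839).

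Of 14 further ATF4 or CHOP targets tested, 1 was called higher and 2 lower, against 6.34% and 2.56% of all tested genes. Ero1l, the oxidase of protein disulfide formation, rose to 23.7 ± 5.54 FPKM in DSS colon, against 13.4 ± 0.416 FPKM in control colon (SD, n = 3 each, limma adjusted p = 0.0462). Sqstm1, the autophagy receptor p62, fell to 121 ± 15.1 FPKM in DSS colon, against 219 ± 37.0 FPKM in control colon (limma adjusted p = 0.0278). Cdkn1a, the cell cycle inhibitor p21, fell to 86.8 ± 22.3 FPKM in DSS colon, against 228 ± 54.1 FPKM in control colon (limma adjusted p = 0.0176). p21 and p62 are driven by p53 and NRF2 as well. Of the 15 other settings, 4 kept the call of Ero1l, 9 that of Sqstm1 and 12 that of Cdkn1a. With all samples kept, Ero1l lost its call under both other filters, all 3 other scalings, plain moderation and the replicate block, Sqstm1 with no filter and Cdkn1a with the replicate block. Leaving out single samples also ended calls: DSS 3 or any control for Ero1l, DSS 2, DSS 3 or any control for Sqstm1, and control 1 or control 2 for Cdkn1a, with adjusted p up to 0.155, 0.102 and 0.0848.

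Amino acid supply around the 10 genes gave 1 call. Cytosolic aminoacyl-tRNA synthetases load amino acids on tRNAs, and ATF4 induces many of them. Of 20 such genes 1, Rars, rose, against 8.90% of all tested genes called. It had 78.9 ± 2.73 FPKM in DSS colon and 51.5 ± 7.53 FPKM in the controls (SD, n = 3 each, limma adjusted p = 0.0459). The fold change was above 0 for 15 of 20, against 63.7% of all tested genes. The Rars call was kept in 3 of 15 other settings and was lost without any sample but control 1 (adjusted p up to 0.174). None of 12 tested genes of serine, glycine, folate and proline synthesis and none of 7 amino acid transporters was called. At an unadjusted limma p under 0.05, 2 of the 12 and 1 of the 7 passed, against 28.3% of all tested genes. The median log2 fold change of these 3 lists was 0.24 for the synthetases, 0.24 for synthesis and 0.25 for transporters, against 0.13 for all tested genes.

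Over the 7 pathway lists 6 of 78 tested genes were called, 7.69%, against 8.90% of all tested genes, with 3 in each direction. Without DSS 1 the count was 12 of 77, 15.6%, where 13.0% of all tested genes were called. Nupr1, Cebpb, Nfe2l2, Eif2ak4, Ero1l and Ppp1r15b were then higher in DSS colon, and Cdkn1a, Eif2s2, Sqstm1, Aldh1l1, Kars and Slc3a2 lower. None of the 10 genes was among the calls.

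**Figure D4:**
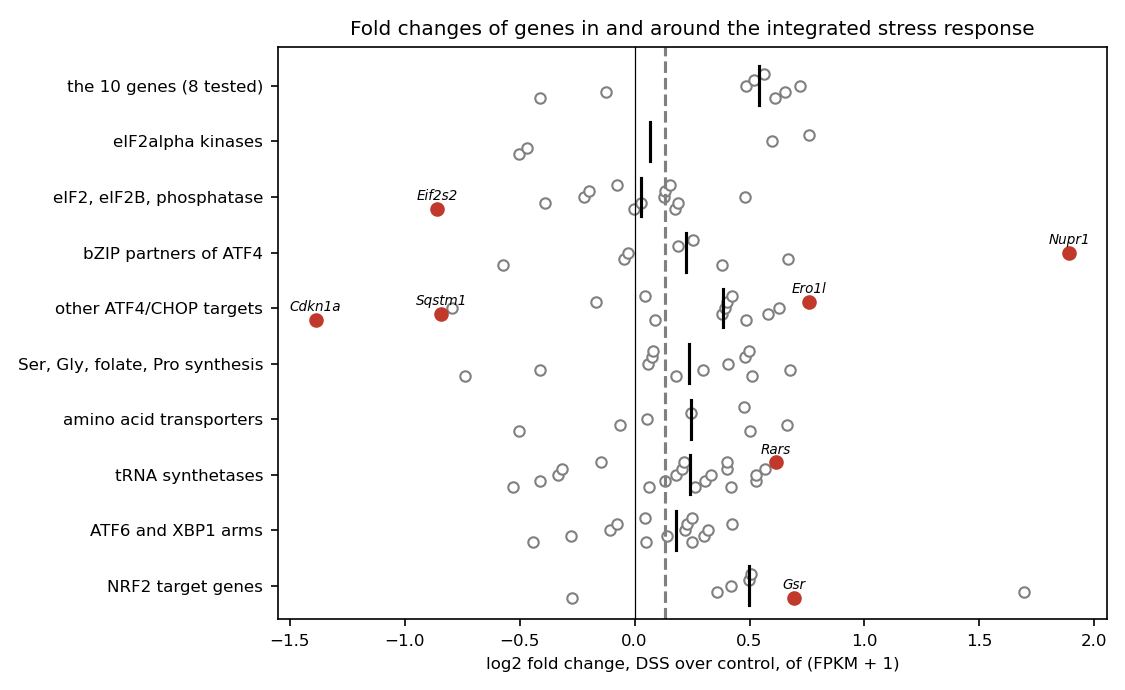
Log2 fold change of (FPKM + 1), DSS over control, of each tested gene by list. Filled points passed at an adjusted p under 0.05 and are named, open points did not, black bars are list medians and the dashed line is the median of all tested genes. Nupr1 at 1.89 is farthest right and Cdkn1a at -1.39 farthest left.

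Of neighbouring stress pathways, the ATF6 and XBP1 arms of the unfolded protein response had 0 of 14 genes called, against 8.90% of all tested genes. At an unadjusted limma p under 0.05, 0 of 14 passed, against 28.3% of all tested genes. The median log2 fold change was 0.18, against 0.13 for all tested genes. Among 7 tested NRF2 targets, the list that Slc7a11 belongs to, Gsr rose, 1 of 7 against 8.90% of all tested genes called. Groups were apart with DSS higher for 5 of 7, against 25.6% of all tested genes. Gclm, 1 of these 5, shares near-identical stretches with 13 other annotated genes, so its values are uncertain. Gsr, which regenerates glutathione, had 43.9, 38.7 and 49.2 FPKM in DSS 1, 2 and 3, against 23.2, 26.3 and 31.0 FPKM in control 1, 2 and 3 (limma adjusted p = 0.0443, up to 0.154 in other settings and kept in 2 of 15). Every DSS sample exceeded every control. Hmox1, which breaks down heme and is high in macrophages, had 8.995, 15.2 and 32.3 FPKM in DSS 1, 2 and 3, against 6.81, 3.47 and 3.57 FPKM in control 1, 2 and 3. Its groups were apart, and its limma adjusted p was 0.0615 with all samples. It was called in 1 of 15 other settings, without DSS 1 (limma adjusted p = 0.0138), and its adjusted p rose to 0.190 in others.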

How the data were processed

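The authors deposited FPKM for each gene and sample, per the file headers. The submitters' processing notes list TopHat2 2.1.1 and mm10. The sources used here do not give the program that made the FPKM or its annotation. Per the labels' protocols, a non-directional second-strand module was used, so strand was taken as not recorded. Low values showed no steps of whole reads, so depth is unknown and no interval for counting error is given.

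Groups came from sample titles. Genes at 1 FPKM or more in at least 3 samples, 12348 in all, were compared between groups as log2(FPKM + 1) in limma 3.58.1, run in R 4.3.3, with robust and trended moderation (two-sided, Benjamini-Hochberg over all tested genes, threshold 0.05); log2 fold changes understate changes of low genes. Members, lists and the motif were chosen with earlier results of these data known, and each called list gene could be named, with up to 4 others of smallest p. No set test was run. Coordinates are from GENCODE vM21, promoters from RefSeq (GRCm38.p6). Near-identical stretches, of at least 200 bases at 95% identity, were sought with BLAST+ 2.17.0. Alternatives changed scaling, filter, pseudocount, moderation, the replicate block and each sample left out.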

Additional observations from a re-analysis of the deposited data

How the results depend on the processing

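None of the 10 genes was called under any of the 15 alternatives, and no fold change among the genes in the tables of alternatives changed sign. Sesn2 fell under the filter without any one DSS sample, and Trib3 and Slc7a11 entered the test in 3 alternatives only (lower filter, no filter, TPM scaling). Over all genes, calls numbered 502 higher and 536 lower under upper-quartile scaling and 515 higher and 509 lower under median-of-ratios scaling. Leaving out 1 sample gave 191 to 972 higher and 58 to 584 lower, the lowest number of higher calls without DSS 3 and of lower calls without control 2. In the 7 pathway lists 1 gene was called higher with the filter at 0.1 FPKM, after TPM, upper-quartile or median-of-ratios scaling and with moderation without trend or robust weights, and 0 with no filter and with the replicate block. Leaving out 1 sample gave 0 to 6 higher and 0 to 6 lower there, with 6 in each direction without DSS 1. These fits hold 5 samples, which by itself can end calls. Whether the replicate numbers pair the samples was not tested. Deviations of same-numbered samples correlated at 0.0818, 0.129 and 0.00308. DSS 1 and DSS 2 correlated best with the control of their own number, and DSS 3 did not. With the replicate number as a block 640 genes were higher and 255 lower, and 0 of the 10 genes were called. Genes near 1 FPKM, namely Trib3, Sesn2, Slc7a11 and Chac1, are the least secure, since depth is unknown.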

Other observations

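Tested genes most like Atf4 over the 6 samples, by Pearson's r of log2(FPKM + 1), were Galnt3 (0.995), Tmem251 (0.988), Ube2f (0.985), Spag9 (0.984) and Taok1 (0.983), given as a description with no p over 6 samples that share their 2 groups. Galnt3, which adds the first sugar of mucin-type chains, had 29.2, 42.9 and 49.4 FPKM in DSS 1, 2 and 3, against 31.7, 18.8 and 17.2 FPKM in control 1, 2 and 3. As with Atf4, DSS 1 lay below control 1, but Galnt3 was picked for its likeness to Atf4 over these same values. None of the 10 genes was among these 5. Atf4 itself was left out and Trib3 and Slc7a11 were not tested, so they could not appear.

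In the list of interferon-stimulated genes, a class that the PKR gene also belongs to, 5 of 12 rose and Oas1a, which has a near-identical copy, fell, against 8.90% of all tested genes called. The immunity GTPase gene Igtp had 45.7 ± 5.19 FPKM in DSS colon and 7.88 ± 1.53 FPKM in the controls (SD, n = 3 each, limma adjusted p = 0.000557). Of 7 tested p53 targets, the list that Sesn2 belongs to, Cdkn1a fell and none rose, 1 of 7 against 8.90% of all tested genes called. The log2 fold change was above 0 for the other 6, against 63.7% of all tested genes. Groups were apart with DSS higher for 2 of the 7, Ccng1 and Sesn2, against 25.6% of all tested genes. Sesn2 entered the test through its DSS samples alone, so the counts over the 7 are a description.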
